A study of Arabidopsis thaliana with 12 samples.

Results

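The step from stage 1-10 to stage 11-12 flowers of Arabidopsis thaliana was described from 6 of the 12 arrays of the series, chosen by the tissue named in their labels. The 6 arrays form 3 pairs, 1 pair for each genotype: the wild type Columbia, plants labelled arf6/arf6 ARF8/arf8, and the double mutant arf6 arf8. ARF6 and ARF8 encode auxin response factors, proteins that bind DNA and switch genes on when auxin is present. The sample titles and the design text disagree on which of the genes keeps its wild-type copy in the intermediate genotype, so these are called single-copy plants below, since 1 functional copy remains under either reading. Every group was untreated, grown for 6 weeks in long days, and sampled as whole flowers, so each array mixes sepals, petals, stamens and carpels of several stages. The labels give neither the alleles nor how many plants were pooled. The other 6 arrays, of stage 13-14 flowers and of stem pieces, are used only for side-by-side values.

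The stages are those of flower development, counted from the first buttress to the open and fading flower. In the young anther the tapetum, the cell layer around the locule, feeds the microspores, makes enzymes and precursors of the pollen wall and coat, and is then broken down. Pollen in turn goes through its divisions and fills with transcripts used for the growth of the pollen tube. At about the same time petals and stamen filaments change from growth by cell division to growth by cell expansion, and flowers that lack both ARF6 and ARF8 are known to stop maturing before they open.

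Array quality was judged first. The 6 arrays had median signals between 192 and 235.3, and between 63.3% and 66.2% of their probe sets reached a signal of 100. Across probe sets, log2 signals correlated between 0.931 and 0.976 within a stage and between 0.879 and 0.940 across stages. At stage 1-10 the single-copy array stood apart, with 937 probe sets at least 2-fold from Columbia and 1134 from arf6 arf8, against 362 between Columbia and arf6 arf8. At stage 11-12 the arf6 arf8 array stood apart, with 1326 probe sets at least 2-fold from Columbia and 2136 from single-copy, against 397. The ratio of 3' to 5' signal of GAPDH, a sign of RNA quality, was 1.14, 1.4 and 0.939 at stage 1-10 in Columbia, single-copy and arf6 arf8, and 1.5, 1.61 and 1.08 at stage 11-12. It was thus higher at stage 11-12 in every genotype. The same ratio of actin was 5.56, 5.33 and 5.53 at stage 1-10 and 7.09, 7.13 and 5.44 at stage 11-12, higher in Columbia and single-copy. The part of either in the results below was not tested. Values of 3 arrays are given in this genotype order throughout, and differences are stage 11-12 minus stage 1-10 on the scale of log2(signal + 50). The value after ± is the moderated standard error (SE) of the limma fit, which draws on the variance of all probe sets. It is not the plain spread of the 3 steps: AT5G07420 had steps of 5.47, 6.08 and 2.74 and an SE of 0.59.

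Between the 2 stages 2135 probe sets differed at an adjusted p under 0.05 (limma, Benjamini-Hochberg), 12.8% of the 16639 that were tested. Of these, 1143 were higher at stage 11-12, which is 6.87% of those tested, and 992 were lower, which is 5.96%. All 2135 had the same direction in the 3 genotypes. The test itself favours this, since a pair that moves the other way widens the residual, so it is no separate result. Rises were the larger, with a median difference of 1.29 against -0.86 for falls and -0.08 over all probe sets tested. A difference of at least 1, which is 2-fold, was reached by 770 rises and 376 falls, and a difference of at least 3 by 102 and 52. The 3 stage 11-12 arrays lay above all 3 stage 1-10 arrays for 1001 of the rises (9.85% of all probe sets tested did so), and below them for 826 of the falls (15.0% of all). In the strictest reading, 80 probe sets (0.481%) went from under 100 in all 3 young arrays to 200 or more in all 3 older ones, and 35 (0.210%) went the other way, and all of them were among the calls. The count depends on single pairs: it was 1193 without the Columbia pair, 724 without the single-copy pair and 2804 without the arf6 arf8 pair.

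**Figure D1:**
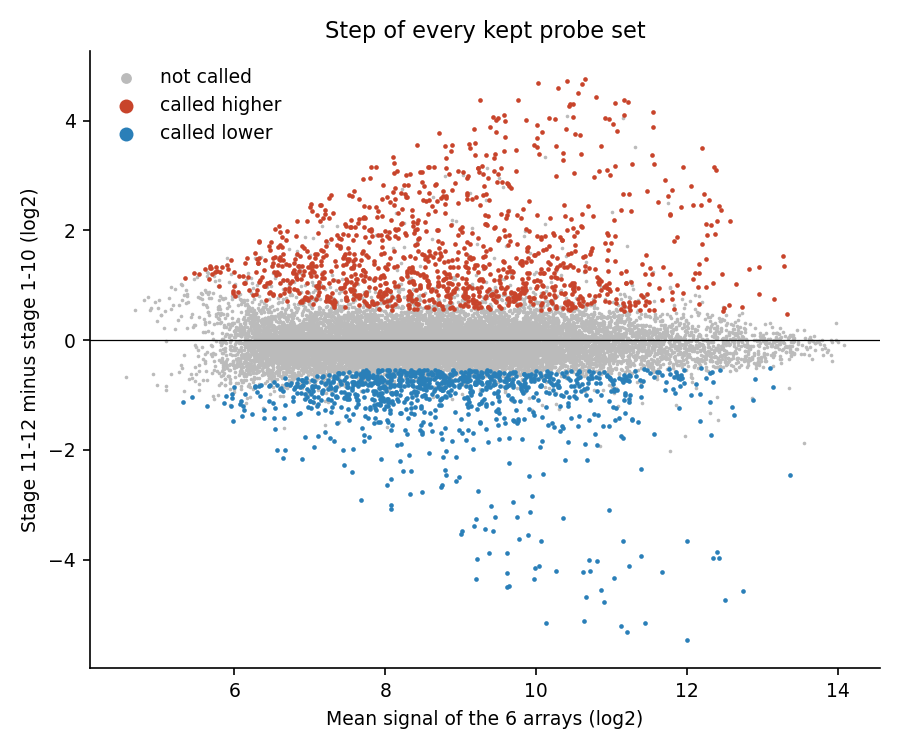
Stage 11-12 minus stage 1-10 (log2) of every kept probe set against the log2 of the mean signal of the 6 arrays, 1 point per probe set, with called rises in red and called falls in blue. The 992 falls hold a separate tail below -3 at high signal, and the 1143 rises reach 4.76.

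The tapetum genes that were called fell. The 3 tapetum lists held 23 regulators, 19 genes of wall and coat synthesis and 21 products, of which 7, 3 and 10 had a named probe set and 6, 3 and 10 passed the filter on low signal. Among the regulators, AMS, the bHLH transcription factor ABORTED MICROSPORES that is required for tapetum development, had signals of 1292, 448 and 609.5 at stage 1-10 and 118, 46.2 and 54.7 at stage 11-12. The groups did not overlap, and the difference was -2.67 ± 0.17 (adjusted p = 0.000464, limma), a 6.38-fold fall of signal + 50. SPL, or SPOROCYTELESS, which specifies the cells that form the spores, went from 349, 312 and 252 to 79.1, 12.3 and 35.4, a difference of -1.99 ± 0.22 (adjusted p = 0.00327, limma). The listed locus AT1G06170 fell as well, by 1.77 on the log2 scale. EMS1, the receptor kinase that sets tapetum identity, had 831, 389 and 876 and then 552, 439.8 and 819.5, which did not pass (difference -0.16 ± 0.18), and AT2G31210 (-1.14) and ROXY2, an anther glutaredoxin (-0.06), did not pass either. In all, 3 of 6 kept regulators fell and none rose, with a median of -1.46, beside 5.96% called lower over all probe sets tested.

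All 3 kept genes of pollen wall and coat synthesis fell, also when any 1 pair was left out. Of all probe sets tested 5.96% were called lower. SHT, the spermidine hydroxycinnamoyl transferase that makes phenolic compounds of the pollen coat, dropped from 2088, 1416 and 1043 to 90.9, 32.8 and 40.7 (difference -3.89 ± 0.16, adjusted p = 0.000368, limma). SDT, the spermidine disinapoyl transferase that makes a related compound, was not on this list but among the largest falls with a symbol, and went from 294, 269.5 and 152 to 62.4, 15.4 and 2.5 (difference -1.95 ± 0.20). SWEET8, also called RUPTURED POLLEN GRAIN1, a sugar transporter needed for the pollen wall, went from 2591, 1802 and 737 to 834, 286 and 238 (difference -1.83 ± 0.22). AT1G33430 fell from 5901, 5336 and 3812 to 781, 208 and 113. Every stage 11-12 value of SHT and SDT was below 100, whereas SWEET8 and AT1G33430 kept 834 and 781 in Columbia.

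Several tapetum products fell further, and the signal left at stage 11-12 differed between genotypes. Of 10 kept members 5 fell and none rose, with a median of -2.77, beside 5.96% called lower over all probe sets tested. Without the single-copy pair 4 fell, and without the arf6 arf8 pair 7 fell and 1 rose. AT5G07230 went from 3558, 3866 and 1950.2 to 46.4, 17 and 53.3 (difference -5.12 ± 0.29, adjusted p = 0.00041, limma), and AT5G62080 from 6034, 4906 and 2982 to 109.9, 37.5 and 52.2 (difference -5.32 ± 0.20). Both were at 109.9 or less in every genotype at stage 11-12. ATA27, the anther beta-glucosidase BGLU20, went from 10042, 11509 and 7888 to 2878, 434 and 118, so that Columbia kept the most signal and arf6 arf8 the least. Its difference of -3.98 ± 0.65 had an adjusted p of 0.0138 (limma), which became 0.062 without the single-copy pair. AT1G66850 showed the same order, from 16040.5, 20849 and 13943 to 12999.7, 6929 and 1008, and did not pass (difference -1.87 ± 0.57, adjusted p = 0.0861, limma). Listed loci close to ATA27 on chromosome 1 differed among themselves: AT1G75920 fell by 3.67 on the log2 scale, AT1G75890 (-0.42) and AT1G75900 (-0.10) did not pass, and nor did AT1G75880, whose difference was 1.24 ± 0.36 (adjusted p = 0.0777, limma).

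Summed over the 19 kept probe sets of the 3 tapetum lists, signal was 57908, 62238 and 41680.5 at stage 1-10 and 26298, 16571 and 5987 at stage 11-12. The stage 11-12 sum was thus 45.4%, 26.6% and 14.4% of the stage 1-10 sum. Without AT1G66850 these shares were 31.8%, 23.3% and 17.9%. The order of the genotypes is a description from 1 array each. In whole flowers, fewer tapetum cells and less RNA per cell cannot be told apart.

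The pollen genes that were called rose. The pollen list held 62 genes, of which 16 had a named probe set. Of the 15 kept members 11 rose and none fell, where 6.87% of all probe sets tested were called higher. Their median was 1.5, beside -0.08 over all probe sets. AT3G07820 had 529, 774 and 2377 at stage 1-10 and 9211, 8879 and 9828 at stage 11-12 (difference 3.15 ± 0.35, adjusted p = 0.00355, limma). The older arrays agreed closely, and the young arf6 arf8 array was the highest of the young ones. ANX2, or ANXUR2, a receptor-like kinase that keeps the growing pollen tube intact, rose from 17.5, 3.5 and 22.8 to 243, 169.7 and 429, a 4.9-fold rise of signal + 50 (difference 2.29 ± 0.21, adjusted p = 0.00169, limma). AGL66 and AGL104, MADS-box transcription factors of pollen maturation, rose together. AGL66 went from 79.5, 78.4 and 151 to 518, 435 and 597 and AGL104 from 67, 58.8 and 90.6 to 433, 333 and 342, with differences of 1.91 ± 0.15 and 1.78 ± 0.17. AT1G49490 and AT3G19020 rose by 2.22 and 2.20, and AT3G19020 did not pass without the Columbia pair (adjusted p = 0.0923, limma). The other rises on the list were ANX1, ACT12, AtVEX1, AT2G15880 and AGL18, and ACT11, AGL65, BZIP34 and AT4G33970 did not pass.

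**Figure D2:**
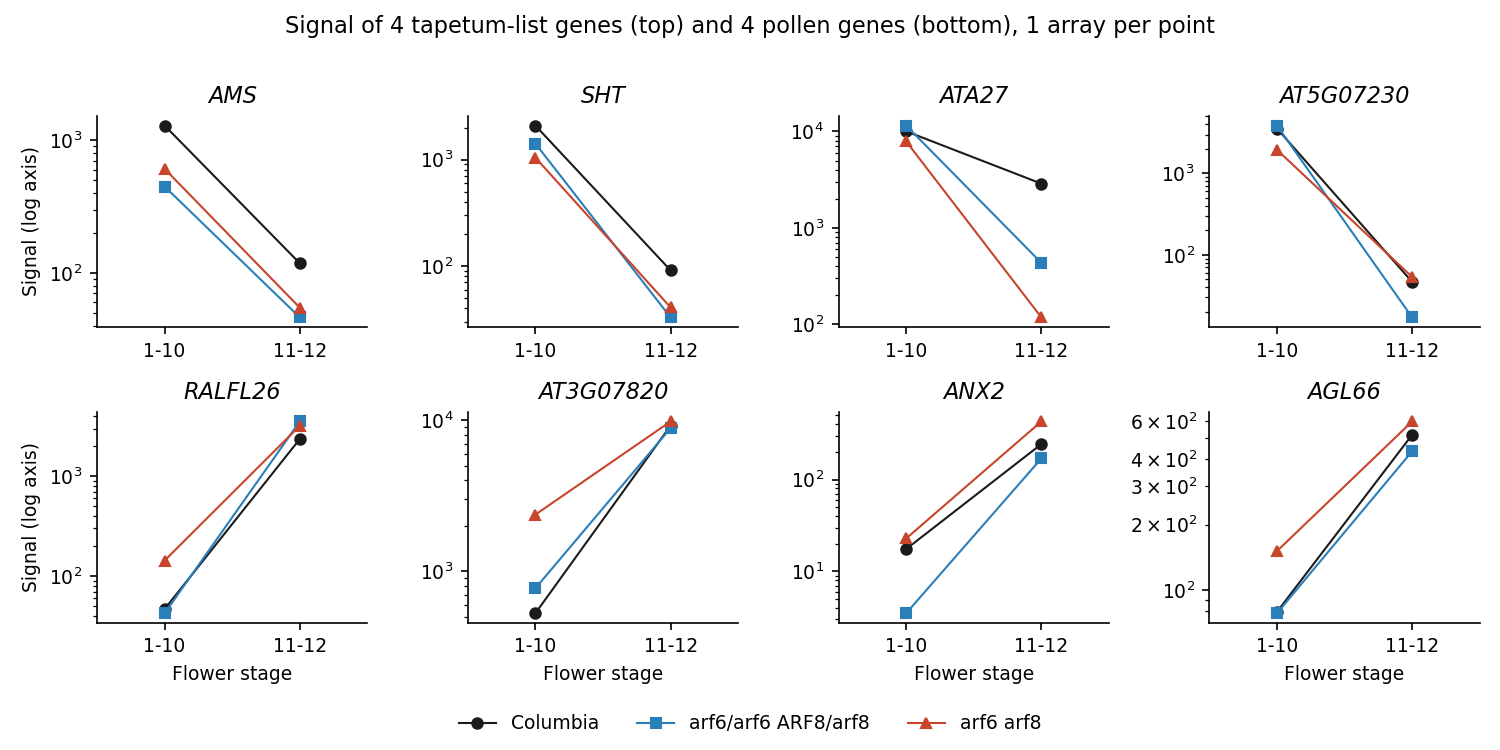
Signal (log axis) of 4 tapetum-list genes (upper row) and 4 further genes (lower row) at stages 1-10 and 11-12, 1 point per array, 1 line per genotype. In the lower row RALFL26 comes from the RALF list and the other genes from the pollen list. All lines fall in the upper row and rise in the lower row. ATA27 ends at 2878, 434 and 118 in the 3 genotypes, and arf6 arf8 starts highest for the genes of the lower row.

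A further list of pollen and pollen tube genes was mixed. PLIM2a, a LIM protein that bundles actin in pollen, went from 64.9, 16.5 and 305 to 2468, 2406 and 3372 (difference 4.31 ± 0.34, adjusted p = 0.00107, limma), and its relative PLIM2b from 212, 149.5 and 282 to 1092, 972 and 1172 (difference 2.12 ± 0.15). AT59, a pectate lyase, rose from 47, 4.2 and 83.7 to 1003, 1211 and 1662 (difference 3.89 ± 0.23). NET2C, an actin-binding protein of the pollen tube, rose from 14, 3.5 and 19.9 to 212, 129 and 161 (difference 1.79 ± 0.20). On the list of further pollen and pollen tube genes, 6 of 19 kept probe sets rose, TUA1 and AGL30 among them, 2 fell and 11 did not pass, among these NET2D, XIE, XIJ and TUB9. The number of rises was 5, 4 and 10 without the Columbia, single-copy and arf6 arf8 pair. Over all probe sets tested, 6.87% were called higher and 5.96% lower in the main fit. Both falls had been entered as pollen genes: sks18, a protein similar to SKU5, went from 1665, 979 and 652 to 192, 39.8 and 15, and TET11, a tetraspanin, from 776, 596 and 304 to 213, 138 and 102.

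Small secreted peptides were among the 14 largest rises and falls. RALFL26, a RALF-like signalling peptide, went from 46.8, 42.5 and 143 to 2361, 3543 and 3208, a difference of 4.66 ± 0.24 (adjusted p = 0.000368, limma), and RALFL25, the gene beside it on chromosome 3, from 48.2, 52.7 and 266 to 1928, 2611 and 1572 (difference 3.80 ± 0.43). These were the 2 members that passed among 8 kept RALF genes, beside 12.8% called over all probe sets tested. Without the arf6 arf8 pair 4 rose, with RALFL32 (adjusted p = 0.0106, limma) and RALFL33 (0.0386) passing as well. RALFL34 was at 4396, 5821 and 4874 and 4296, 4659 and 2189.9 and did not pass. LCR72, a defensin-like peptide also named PDF2.6, rose from 88.6, 86.4 and 250.2 to 2844, 3005 and 1839 (difference 3.84 ± 0.36), while LCR66, the defensin-like PDF2.4, went the opposite way from 6651, 4417 and 2089 to 93.4, 36.8 and 52.7 (difference -5.20 ± 0.27, adjusted p = 0.000369, limma). Both kept their call without any 1 of the pairs.

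A single kept gene marked the male germ line. MGH3, the histone H3 of sperm cells, went from 86.4, 102 and 95.9 to 483, 317 and 167 (difference 1.27 ± 0.27, adjusted p = 0.0299, limma). The groups did not overlap, but the older arrays spread widely, and the adjusted p was 0.0823 without the Columbia pair and 0.133 without the single-copy pair. AtVEX1, a sugar transporter also named SWEET5 and known from the vegetative cell of pollen, rose from 319, 289 and 664 to 1627, 758 and 1440.2 (difference 1.5 ± 0.24, adjusted p = 0.0121, limma, and 0.053 without the single-copy pair).

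Most of the steepest changes belong to loci with no gene symbol in the annotation used. By the naming rule, the 14 largest rises were AT5G07420, AT5G54095, AT3G17060, RALFL26, AT3G26110, AT3G26860, AT5G48140, AT1G54070, AT5G26700, AT2G19000, PLIM2a, AT4G18395, AT5G39880 and AT5G62750, with differences from 4.1 to 4.76. All 14 passed without any 1 of the pairs. AT5G07420 led, from 30.3, 5.1 and 277 to 3514, 3673 and 2131 (difference 4.76 ± 0.59, adjusted p = 0.00502, limma). AT5G54095 went from 27.1, 22.6 and 127 to 2040.2, 3650.2 and 2271, and AT3G26110 from 21, 21.2 and 154 to 2189, 1966 and 3170.2. In each of the 14 the arf6 arf8 array was the highest of the young arrays, at 98.0 to 506.5, while the other young arrays lay at 94.7 or less. In the older arrays arf6 arf8 was the highest for 6 of them.

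By the same naming rule, which takes only probe sets with 1 locus, the 14 largest falls were AT5G62080, LCR66, AT5G07230, AT1G02813, AT1G68875, AT1G30020, AT4G20420, AT3G07450, AT3G52130, AT5G48210, AT2G03850, AT4G37900, AT5G16920 and AT5G16960, with differences from -5.32 to -4.21. Among all called probe sets the lowest difference was -5.46. All 14 named falls passed without any 1 of the pairs as well, and AT5G62080, AT5G07230 and AT3G52130 are also on the tapetum list. AT1G68875 went from 10243, 14069 and 8557 to 1674, 273 and 70.1 (difference -4.73 ± 0.63, adjusted p = 0.00645, limma), with the order of genotypes seen for ATA27. AT3G52130 went from 1530.1, 1004 and 974 to 5.1, 8.8 and 12.5.

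Wall-loosening and wall-cutting enzymes moved in both directions. Of 19 kept expansin and xyloglucan endotransglucosylase (XTH) genes, which loosen and rejoin the wall of expanding cells, 5 rose and 1 fell, with a median of 0.21. Over all probe sets tested, 6.87% were called higher and 5.96% lower. EXPA24 went from 20.9, 6.6 and 114 to 1088, 879 and 574 (difference 3.32 ± 0.41, adjusted p = 0.00502, limma), and EXPB5 from 103, 81.2 and 165 to 880.3, 979 and 776 (difference 2.51 ± 0.21). XTH29, EXPA9 and EXGT-A3 rose by 1.06, 0.65 and 0.64. EXPA15 fell from 1532, 1187 and 1405 to 1035, 701 and 560.5 (difference -0.84 ± 0.18). Only EXPA24 and EXPB5 kept their call when the Columbia or the single-copy pair was left out, and without the arf6 arf8 pair 7 members rose.

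Glycosyl hydrolase family 9 (GH9) cellulases, which cut glucan chains of the wall, showed the same spread. GH9A4 rose from 74.6, 32 and 166 to 1089, 890.5 and 1333 (difference 3.13 ± 0.19, adjusted p = 0.000431, limma) and GH9B11 from 5.2, 7.1 and 4.4 to 332, 369.8 and 214 (difference 2.65 ± 0.20). GH9B17 rose by 1.14, whereas GH9B18, its neighbour on chromosome 4, fell by 1.14 on the log2 scale, from 575, 294 and 519 to 299.7, 143 and 118. GH9B17 and GH9B18 did not pass without the single-copy pair (adjusted p = 0.131 and 0.0621, limma). In all 3 of 11 members rose and 1 fell, beside 6.87% called higher and 5.96% lower over all probe sets tested. Without the arf6 arf8 pair 5 rose. ADPG1, a polygalacturonase that opens the anther by cutting pectin between cells, rose from 50.3, 115 and 122 to 1178, 2022 and 474 (difference 2.96 ± 0.40, adjusted p = 0.00686, limma). SBT4.13, a subtilisin-like protease, rose from 114, 54 and 379.5 to 3148, 1903 and 1799 (difference 3.54 ± 0.43). Of 16 genes of the TRICHOME BIREFRINGENCE-LIKE family, whose members acetylate wall polysaccharides, TBL20, TBL38 and TBL37 rose by 1.23, 0.87 and 0.82 and none fell, and without the single-copy pair none of the family passed. Without the Columbia pair TBL38 alone passed. The 3 rises among 16 TBL genes stand beside 6.87% called higher over all probe sets tested.

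Sugar transporters of the SWEET family moved in both directions. Of 15 members 3 rose and 3 fell, beside 6.87% called higher and 5.96% lower over all probe sets tested. SWEET13 went from 233, 154 and 302 to 1517, 1365 and 620 (difference 2.06 ± 0.35, adjusted p = 0.0156, limma), SWEET4 from 1008, 1210.4 and 1084 to 3356, 3467 and 1716 (difference 1.27 ± 0.22), and AtVEX1 is given above. SWEET3 fell from 2038, 1677 and 1499.9 to 1364, 819 and 488 (difference -1.03 ± 0.21) and SWEET17, a vacuolar fructose transporter, by 0.69 on the log2 scale, beside SWEET8. Without the single-copy pair SWEET8 alone kept its call. Without the Columbia pair SWEET13, SWEET4 and SWEET17 lost theirs (adjusted p = 0.0682, 0.0695 and 0.0737, limma). In that fit 2 members rose and 3 fell, so members not called over the 3 pairs passed there. Without the arf6 arf8 pair 6 members rose. The further ones included SWEET9, the nectar transporter, which had 84.7, 111 and 44.8 and then 1310.2, 1350.5 and 46.7: it was higher at stage 11-12 in Columbia and single-copy flowers alone and did not pass over the 3 genotypes (difference 2.16 ± 0.62, adjusted p = 0.0725, limma).

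**Figure D3:**
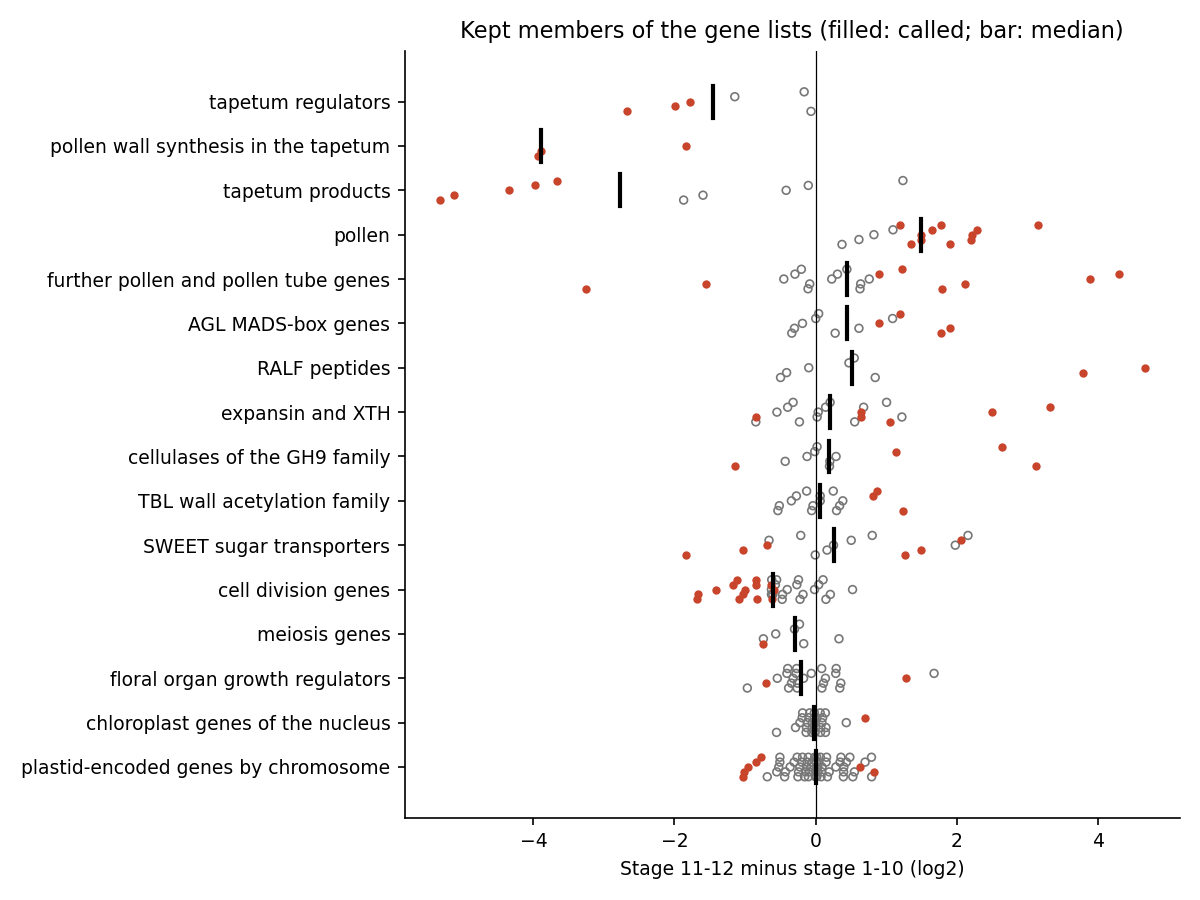
Stage 11-12 minus stage 1-10 (log2) of each kept member of 16 gene lists, with called members filled, others open, and the list's median as a bar. The tapetum lists reach down to -5.32, with AT1G75880 at 1.24 and not called. The pollen lists reach up to 4.31, with sks18 called at -3.26. Of 33 cell division genes 14 are called lower, and the chloroplast lists centre on 0.

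The cell division genes that were called fell. On the list of 33 kept genes 14 fell and none rose, where 5.96% of all probe sets tested were called lower. The median of the list was -0.61, beside -0.08 over all probe sets. TOPII, the topoisomerase that untangles chromosomes, went from 738, 418 and 884 to 217, 109 and 194 (difference -1.69 ± 0.15, adjusted p = 0.00145, limma). 3xHMG-box2 and 3xHMG-box1, proteins bound to mitotic chromosomes, fell by 1.66 and 1.12 on the log2 scale. HTB2, a histone H2B, went from 1728, 3195 and 1340.4 to 759, 1018 and 443 (difference -1.41 ± 0.16), and BUB3.1, a protein of the spindle checkpoint, from 766, 823 and 711 to 354, 339 and 254 (difference -1.17 ± 0.14). Its checkpoint partner BUBR1 fell by 1.08 on the log2 scale. The other falls were HTB1, HTB4, HTR12, PRL, ICU2, ASF1B, AUR2 and KINESIN-12B. AUR1 did not pass, at 586, 396 and 731 and then 709, 460.2 and 664. The number of falls was 7, 6 and 13 without the Columbia, single-copy and arf6 arf8 pair, and 1 member rose without the arf6 arf8 pair. BUBR1 was among the falls lost without the single-copy pair (adjusted p = 0.122, limma). Summed over the list, signal at stage 11-12 was 69.1%, 62.1% and 59.3% of that at stage 1-10.

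Meiosis genes were measured too sparsely to describe as a group, and 12.8% of all probe sets tested were called in either direction. Of 7 kept members TOP3A alone passed, from 219.9, 174 and 239.6 to 114, 92 and 109 (difference -0.75 ± 0.15, adjusted p = 0.0254, limma), and it did not pass without any 1 of the 3 pairs (adjusted p from 0.0516 to 0.141). DD46, named from a screen for genes of the female gametophyte, fell from 1254, 1711 and 784 to 150.1, 78.9 and 89 (difference -3.02 ± 0.25, adjusted p = 0.00121, limma), in all 3 genotypes. It was the only fall among 7 kept genes of the female gametophyte, ovule and stigma, beside 5.96% called lower over all probe sets tested. Without the Columbia pair 2 of these 7 fell. AT3G12000, on the carpel, stigma and ovule list, had 356, 420 and 14.3 and then 2688, 2650.5 and 37.3: the step was several-fold in Columbia and single-copy flowers, and in arf6 arf8 all values stayed below 50. It passed narrowly (difference 1.91 ± 0.43, adjusted p = 0.0392, limma) and not without the Columbia or the single-copy pair (adjusted p = 0.129 and 0.177). INO and SPT, transcription factors of the ovule and carpel, did not pass, with 0.14 and -0.34.

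Regulators of organ growth gave 1 rise and 1 fall among 24 kept genes, beside 12.8% called over all probe sets tested, and a median of -0.21. Without the arf6 arf8 pair 2 rose and 4 fell. EXO did not pass over the 3 pairs (adjusted p = 0.0553, limma) and fell without the Columbia pair (adjusted p = 0.0438). CES, a bHLH factor that acts in the transmitting tract of the carpel, rose from 592, 1320.4 and 573 to 2114, 3480.2 and 984 (difference 1.28 ± 0.21, adjusted p = 0.0148, limma). YAB3, which sets the outer side of lateral organs, went from 515, 544 and 690.4 to 355, 284 and 381 (difference -0.70 ± 0.14). Neither passed without the Columbia or the single-copy pair (adjusted p from 0.051 to 0.239, limma). BPEp, a bHLH factor that limits petal cell size, had 429, 469.8 and 739 and then 2463, 2845 and 839.8, with steps of 2.39, 2.48 and 0.17, and did not pass (difference 1.68 ± 0.45, adjusted p = 0.0593, limma), but did without the arf6 arf8 pair (adjusted p = 5.15e-06).

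Chloroplast genes were described by 2 lists. Of 29 kept nuclear genes for chloroplast proteins 1 rose, PIFI by 0.71 on the log2 scale, and the median was -0.02. PIFI did not pass without the Columbia or the single-copy pair (adjusted p = 0.0766 and 0.246, limma). The antenna protein LHCB4.2 had 7166, 7887 and 7723 and then 7134, 7361 and 8209. Of 62 kept plastid-encoded genes 2 rose and 5 fell, a share near the 12.8% called over all probe sets, with rpl14 at 1179, 605 and 1154 and then 446, 278 and 649.5 the deepest (difference -1.03 ± 0.16, adjusted p = 0.011, limma). None of the plastid-encoded genes passed without the single-copy pair, and without the Columbia pair 0 rose and 3 fell. COR47, a dehydrin that accumulates in cold and drought, rose from 1322, 999 and 1102 to 6450.4, 7039 and 4059 (difference 2.28 ± 0.20, adjusted p = 0.00141, limma). It was 1 of 3 rises among 10 dehydration genes, beside 6.87% called higher over all probe sets tested. Of these 3 rises COR47 was the only one to pass without the Columbia or the single-copy pair.

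Other enzyme and membrane protein families had calls in both directions, beside 12.8% called over all probe sets tested. Of 22 serine carboxypeptidase-like genes 4 rose and 4 fell. The widest was scpl38, from 8.4, 8.1 and 24.6 to 311, 528 and 1947 (difference 3.56 ± 0.38, adjusted p = 0.00292, limma), and without the single-copy pair it was the only one left. Without the Columbia pair 1 of the family rose and 2 fell. Among 24 UDP-glycosyltransferases UGT74D1 and UGT73B1 rose and UGT84A1 and UGT74F1 fell, none of them called without the single-copy pair and UGT84A1 alone without the Columbia pair. Of 12 tetraspanins TET6 and TET3 rose and TET11 and TET15 fell, and TET11 alone kept its call without the single-copy pair. Without the Columbia pair no tetraspanin rose. UPB1, a bHLH factor known from root growth, rose from 84, 114 and 99.1 to 1452, 2047 and 665 (difference 3.14 ± 0.28, adjusted p = 0.00163, limma). Neither of the 2 kept reference genes passed. PEX4 had 1266, 1685 and 1492 and then 1423, 1653 and 1376, and AT4G34270 had 673, 684 and 666 and then 477, 546 and 527, lower in all 3 genotypes (difference -0.36 ± 0.14, adjusted p = 0.138, limma).

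The size of the step was compared between genotypes by counting, since 1 array per genotype and stage allows no test of a difference between genotypes. A change of at least 2-fold in signal + 50, with 200 or more in the brighter array, was an increase for 923 probe sets in Columbia (4.06% of 22746), 843 in single-copy (3.71%) and 953 in arf6 arf8 (4.19%). It was a decrease for 441 (1.94%), 407 (1.79%) and 683 (3.0%). The 1143 called rises had median steps of 1.36, 1.3 and 1.17 in the 3 genotypes, and the 992 called falls of -0.83, -0.84 and -0.95. Summed over the pollen list, signal was 2586, 2499 and 5138 at stage 1-10 and 16703, 13338 and 16532 at stage 11-12. The ratio of the stages was 6.46, 5.34 and 3.22, lowest in arf6 arf8, whose young array was the highest. Without AT3G07820 the ratios were 3.64, 2.58 and 2.43.

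**Figure D4:**
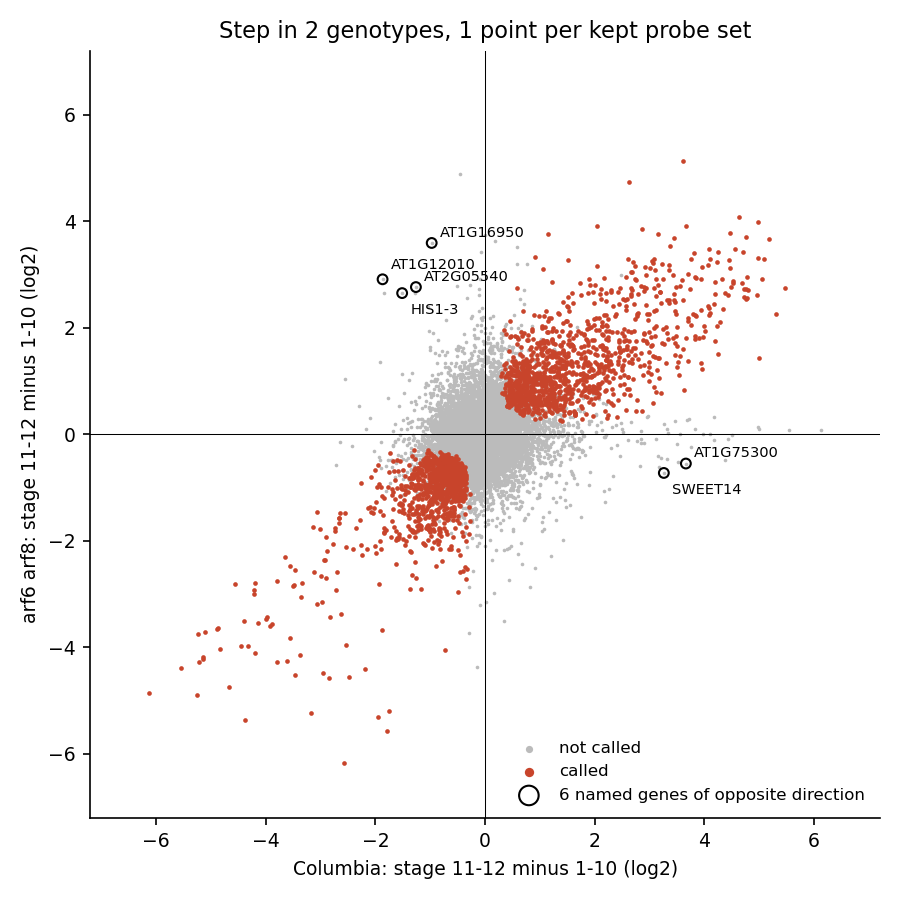
Step from stage 1-10 to stage 11-12 (log2) in Columbia on the horizontal axis and in arf6 arf8 on the vertical axis, 1 point per kept probe set, called ones in red. Called probe sets lie at the lower left and the upper right, which the test favours, and the 6 circled genes were chosen for opposite directions.

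The values of stage 13-14 flowers are set beside the step as a description. Of the 1143 called rises, 654 had a still higher mean signal at stage 13-14, and 83 had fallen below the stage 1-10 mean. RALFL26 went on to 6304, 6075 and 3777, PLIM2a to 5133, 5249 and 2928 and COR47 to 13229.7, 10975 and 4116. Others were lower again, with SBT4.13 at 439.5, 621 and 102, EXPA24 at 156, 88.6 and 18.4, AtVEX1 at 82.4, 60 and 152 and AGL66 at 249, 202 and 142. Of the 992 called falls, 500 were lower again at stage 13-14 and 12 had risen above the stage 1-10 mean. The calls were themselves selected for their distance from the stage 1-10 values, which by itself makes a return past that mean rare. The same counts over all kept probe sets were not taken, so no conclusion is drawn from these counts. ATA27, which had kept 2878 in Columbia, was at 63.2, 3.9 and 9.1, and AT1G66850 at 498, 62.4 and 68.6.

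The stem arrays gave a side view of the same probe sets. A signal under 100 in all 3 stems was found for 499 of the 1143 rises, or 43.7%, for 95 of the 992 falls, or 9.58%, and for 9.42% of all kept probe sets. RALFL26 had 79.4, 34.9 and 16 in stem and AT3G07820 88.4, 29 and 20.6. Cell division genes had signal in stem too, with 3xHMG-box2 at 893, 1119 and 1340.3 and HTB2 at 794, 755 and 627.

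**Figure D5:**
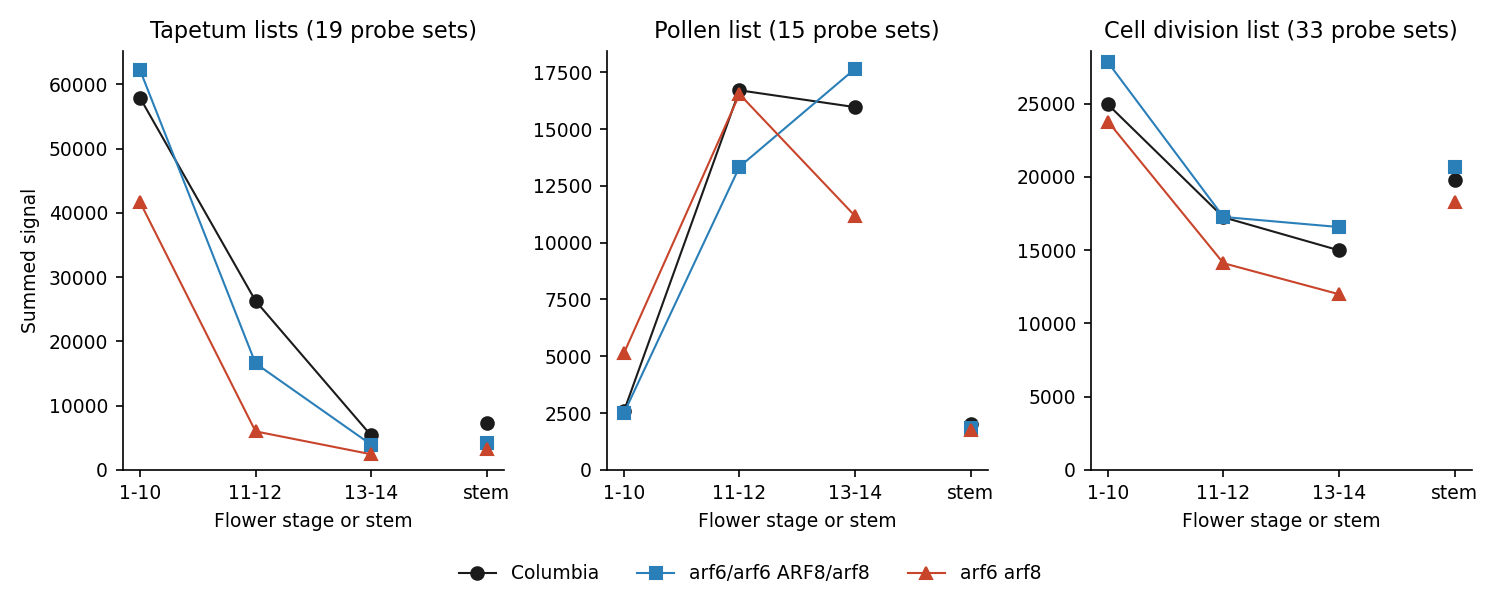
Summed signal of the tapetum lists (19 probe sets), the pollen list (15) and the cell division list (33) in each of the 12 arrays, by flower stage and in stem, 1 point per array. From stage 1-10 to 11-12 the tapetum sum falls and the pollen sum rises in every genotype, and the Columbia tapetum sum of 26298 at stage 11-12 is the highest of the 3.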

How the data were processed

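Transcript levels of 12 Arabidopsis samples, 1 array per genotype and tissue, were measured with oligonucleotide arrays, from biotin-labelled cRNA made from about 7 µg of total RNA. The deposited values are signal intensities on a linear scale, and per the submitters' processing notes the authors made them with MAS5, whose version and settings are not given in the sources used here. Each array's mean after trimming 2% at either end lay between 500.03 and 500.04, so the arrays had been scaled globally before deposit, and they were not rescaled. The number of arrays limits the precision.

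Without the 64 control probe sets 22746 remained, and 16639 of them were kept for a signal of 100 or more in at least 1 of the 6 arrays. Values were transformed to log2(signal + 50), which understates changes of dim probe sets. The step was fitted with limma 3.58.1 in R 4.3.3 (lmFit, then eBayes with a trend) as genotype plus stage, two-sided, with Benjamini-Hochberg adjustment over all kept probe sets, a threshold of 0.05, 2 residual and 4.28 prior degrees of freedom. The script was tested on simulated data. The pairs are different genotypes and not replicates of one condition, so the p-values measure array error together with differences of the step between genotypes. Nothing in the labels says whether arrays came from separate cultures.

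Names come from the platform's probe table, joined by gene ID to the RefSeq annotation of assembly TAIR10.1. It gives 13436 of 14016 listed probe sets 1 locus, 9177 of them kept, and 8730 probe sets are not listed. Few genes have a symbol other than the locus (189 of 1132 called probe sets with 1 locus). The members and lists were chosen with earlier results of these data known. Of 25 lists 5 had no kept member (cutin and wax, arabinogalactan proteins, lipid transfer proteins, GDSL lipases and a first plastid list), and 16 lists were added after a look at the genes named in the probe table. Named genes are the 14 largest rises and 14 largest falls among called probe sets with 1 locus, the same direction in all genotypes and at least 200 as the mean signal of the brighter stage, with up to 6 members of each list and the 6 genes whose steps in arf6 arf8 and Columbia differed most in opposite directions. Genes given by symbol outside these sets were taken from the 16 largest rises and falls that have a symbol, and list members named without an array value were chosen after their values were seen. No sequences were used here, and neighbouring genes were taken from the order of the RefSeq annotation. The alternatives changed the pseudocount, the filter, the normalization, the model, the arrays and the pairs.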

Additional observations from a re-analysis of the deposited data

Results flagged for a closer look

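The following genes moved in opposite directions in Columbia and arf6 arf8, with 1 array per genotype and stage, so the difference was not tested. AT1G12010 had a step of -1.87 in Columbia (793 to 181) and 2.91 in arf6 arf8 (126 to 1269.5), with single-copy at 0.62. AT1G16950 had -0.97 and 3.59, HIS1-3, a linker histone variant induced by drought, -1.51 and 2.65, and AT2G05540 -1.26 and 2.76. In the other direction AT1G75300 had 3.66 in Columbia and -0.55 in arf6 arf8, and SWEET14, a sugar transporter, 3.26 and -0.73. Single-copy flowers had a step of 3.02 for AT1G75300 and 3.41 for SWEET14. None of the 6 passed the test of the step over the 3 genotypes (adjusted p from 0.128 to 0.678, limma). Their choice for opposite steps makes this nearly certain, since such steps widen the residual and shrink the mean, so it is no separate result. By a separate rule, opposite steps of at least 1 in both genotypes were found for 27 of the 8997 probe sets whose brightest array reached 500. AT1G16950, AT1G75300 and SWEET14 do not meet that rule, since 1 of their opposite steps is smaller than 1.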

How the results depend on the processing

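The count of 2135 probe sets (1143 higher, 992 lower) was 1420 (585 lower) with no filter, 873 (594 higher, 279 lower) with no replicate block, that is with genotypes not paired, 1054 (675 and 379) with the 9 flower arrays and 1146 (376 lower) when a difference of at least 1 was also required, a rule chosen after seeing the data. Leaving out 1 pair gave from 724 to 2804 calls, from 497 to 1549 higher and from 227 to 1255 lower. Counts of steps of at least 2-fold moved from 1364 to 852 in Columbia and from 1636 to 987 in arf6 arf8 with a pseudocount of 200, and to 902 in Columbia with 500 or more in the brighter library. The other alternatives moved these counts by less than 1.5 times. No named gene that was called changed direction with a pseudocount of 16 or 200 or after quantile normalization. The other settings could not turn a sign, since they leave the difference as it is or leave out 1 of 3 pairs of the same sign. Of 117 called named genes 69 kept their call without the single-copy pair, 82 of 116 without the Columbia pair, 111 without the arf6 arf8 pair, 76 with no replicate block, 80 with the 9 flower arrays and 96 with all 12. The list of nectary and terpene genes had 0 of 4 called over the 3 pairs and 4 of 4 higher without the arf6 arf8 pair (median 1.80 and 2.79). The cause of these changes was not tested. With 1 array per genotype and stage, the median SE was 0.163, which limits the calls of small steps.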

Other observations

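Some genes of nectar, scent and secondary metabolism differed in their step between genotypes, which was not tested, and are given as values. AT5G44630, on the list of nectary, terpene and scent genes, had 1001, 969.8 and 933 at stage 1-10 and 3465, 2192 and 285 at stage 11-12 in Columbia, single-copy and arf6 arf8. AT3G25810, on the same list, went from 11.3, 7.5 and 8.5 to 536, 105 and 16.9, and CYP71B31, a cytochrome P450, from 1.6, 1.1 and 1.1 to 839, 65.6 and 1.4. UGT85A3 went from 76, 88.6 and 120 to 647, 544 and 78.4. None passed the test over the 3 genotypes (adjusted p from 0.104 for AT3G25810 to 0.652 for AT5G44630, limma), where unlike steps themselves widen the residual. Other members of the same families went the other way, with steps of -0.17, -0.01 and 1.21 for CYP78A9 and 0.23, 0.48 and 1.26 for UGT87A2. Over the 13 kept cytochrome P450 genes the median steps were -0.35, -0.01 and 0.30. Of these 13 genes 0 rose and 1 fell, beside 12.8% called over all probe sets tested.

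The Columbia stem array had more signal than the other stems for ATA27, AT1G68875 and AT1G66850. ATA27 had 802, 59 and 2.6 in the 3 stems, AT1G68875 1627, 4.5 and 3.8, and AT1G66850 1484, 338 and 61.9. The stem arrays do not enter the comparison of the flower stages.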
